A study of Homo sapiens with 2 samples.

Results

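The nuclear genes of oxidative phosphorylation were described in 2 libraries of chromatin immunoprecipitation followed by sequencing (ChIP-seq) made with an antibody against TCF19. TCF19 is a chromatin protein whose PHD finger can bind modified histone H3. Ishikawa, the line used, was established from a human endometrial cancer. One population was infected with a lentivirus for TCF19 overexpression and the other with a control lentivirus. Both were selected with puromycin, and both carry their own TCF19 gene. The labels do not name the promoter that drove the transgene, whether the protein was tagged, or the number of cultures, and they describe infected populations, not clones. Each group was 1 library, so no difference between conditions could be tested, and every interval given is a 95% interval for counting error alone.

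The set was chosen by gene symbol from the RefSeq protein-coding genes on chromosomes 1 to 22 and X. A symbol had to begin with NDUF, SDH followed by A to D or AF, UQCR, COX followed by a digit, ATP5F, ATP5M or ATP5P. This gave 108 of 19974 genes. The rule also fixed the measured value to be read, which was whether a called summit lay within 1000 bp of either end of the gene, called a gene-end summit here. The set was proposed with such calls in view, so the counts and pileups are a description and no test was made of them. The pileup of a summit is the number of reads over its highest point, and where a gene had several gene-end summits the one of highest fold enrichment was taken. At the TCF19 gene, 3 summits were called in the overexpression library, the highest of 143 reads, and 0 in control. The overexpression list held 112212 summits and the control list 170334. The genome-average pileup recovered from the peak statistics was 1.43 reads in the overexpression library and 1.58 in control.

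Oxidative phosphorylation takes electrons from NADH at complex I and from succinate at complex II, passes them through complex III and cytochrome c to oxygen at complex IV, and uses the proton gradient this builds to make ATP at complex V. Most subunits are encoded in the nucleus, translated in the cytosol and imported into mitochondria, and each complex is put together with the help of assembly factors that are not part of the finished enzyme. Nuclear respiratory factor 1 (NRF1), the ETS-family factor GABPA and YY1 are known to bind promoters of many of these genes.

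The starts of 4 genes show the kinds of promoter that the set holds. They were chosen as a complex III gene called in both libraries with a summit inside the stretch shown (UQCRC1), the gene of highest fold enrichment among those called in the overexpression library alone with a sequence (SDHAF2), the 1 gene called in control alone (NDUFA9), and the gene whose ends lay farthest from any overexpression summit (COX19). Each is the 250 bases before the RefSeq start on GRCh38.p14, read in the direction of transcription. Capitals mark matches on either strand to the NRF1 core, the ETS core CCGGAAG, the YY1 core AAGATGG or the cAMP response element TGACGTCA. The stretches lie at chr3:48609647-48609896 on the minus strand for UQCRC1, at chr11:61429874-61430123 on the plus strand for SDHAF2, at chr12:4648864-4649113 on the plus strand for NDUFA9 and at chr7:975550-975799 on the minus strand for COX19.
UQCRC1: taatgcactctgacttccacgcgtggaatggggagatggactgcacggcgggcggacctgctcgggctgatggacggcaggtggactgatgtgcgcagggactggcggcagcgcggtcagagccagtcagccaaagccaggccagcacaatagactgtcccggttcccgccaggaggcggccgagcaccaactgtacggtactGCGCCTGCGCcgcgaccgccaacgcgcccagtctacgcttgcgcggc
SDHAF2: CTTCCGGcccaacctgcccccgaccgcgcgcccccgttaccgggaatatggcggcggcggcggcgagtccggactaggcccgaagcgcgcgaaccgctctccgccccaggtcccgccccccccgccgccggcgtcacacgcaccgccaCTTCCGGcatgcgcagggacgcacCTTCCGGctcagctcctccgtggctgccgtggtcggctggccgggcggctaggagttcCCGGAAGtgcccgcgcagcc
NDUFA9: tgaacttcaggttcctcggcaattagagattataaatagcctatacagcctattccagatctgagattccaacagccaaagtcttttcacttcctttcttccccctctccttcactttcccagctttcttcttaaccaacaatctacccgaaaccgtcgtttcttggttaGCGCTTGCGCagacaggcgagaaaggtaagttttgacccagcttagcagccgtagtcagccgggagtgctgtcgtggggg
COX19: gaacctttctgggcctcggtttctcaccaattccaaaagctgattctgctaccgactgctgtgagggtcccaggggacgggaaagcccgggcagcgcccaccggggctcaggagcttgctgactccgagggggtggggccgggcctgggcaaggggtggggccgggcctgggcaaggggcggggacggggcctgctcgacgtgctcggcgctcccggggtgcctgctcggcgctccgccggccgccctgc
In UQCRC1 the NRF1 core stands 47 to 38 bases before the start, and in NDUFA9 80 to 71 bases before it. SDHAF2 has 4 ETS cores, the nearest 20 to 14 bases before the start, and COX19 has 0 matches. The stretches of SDHAF2, COX19 and UQCRC1 are 76.4%, 72.4% and 67.2% G and C, and that of NDUFA9 is 48.4%. The overexpression summit of UQCRC1 lay 114 bp before the start and that of SDHAF2 171 bp before it, both inside the printed stretch, while the control summit of NDUFA9 lay 117 bp after the start.

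Of the 108 genes, 85 (78.7%) were called with such a summit under overexpression and 56 (51.9%) in control. The same rule called 64.8% of all protein-coding genes under overexpression and 54.6% in control. The libraries shared 55 of the genes, against 48.8% of all genes called in both. The overexpression library alone called 30, or 27.8%, against 16.0% of all genes, and control alone called 1, against 5.84%. Neither called 22, against 29.4% of all genes. A count over the set therefore stood above the background of all genes in the overexpression library and just below it in control. Among genes with CpG-rich promoters, defined below, the overexpression share was near its background (81.5%, against 80.6%). The control share was below its own (53.1%, against 64.7%). Of the 30, 10 lay on a summit whose lower counting bound, scaled to control depth, still met the reads that control would have needed at that local background. For the other 20 the control library could have missed an equal summit at this depth. With the control list cut by fold to the length of the overexpression list, 51 genes (47.2%) were called in the overexpression library alone, against 33.2% of all genes. This cut left the overexpression list whole and could only remove control calls, so the count could only rise.

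**Figure D1:**
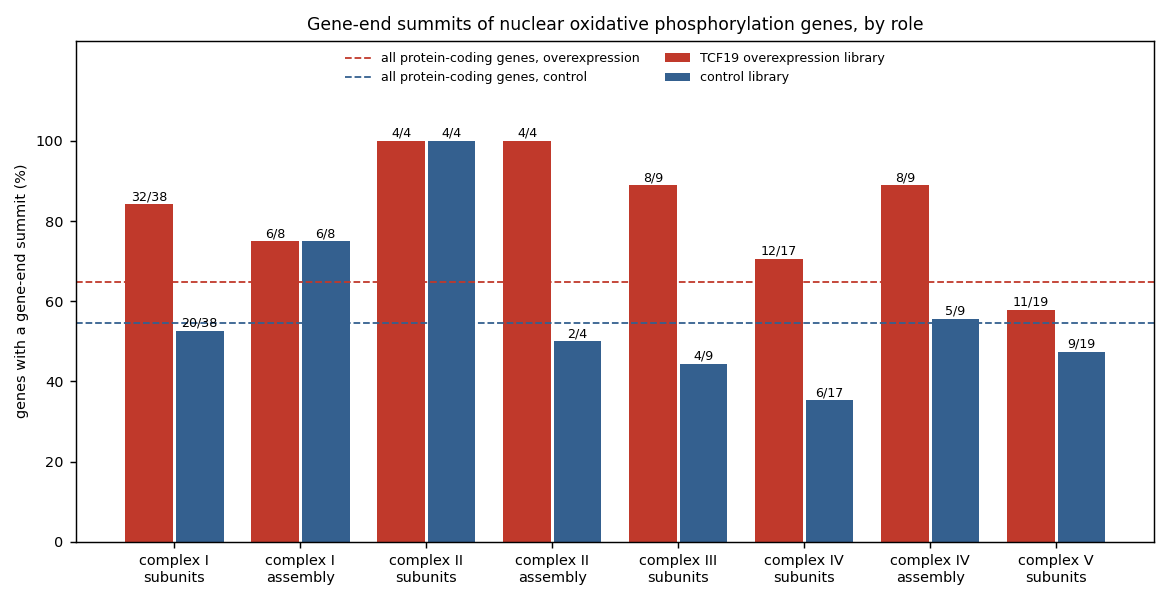
Share of genes (%) with a gene-end summit in each role, in the TCF19 overexpression library (red) and the control library (blue), with the number of genes over each bar; dashed lines give the share of all protein-coding genes. The overexpression bar stands above its line in every role but complex V subunits, where 11 of 19 genes were called by gene ends, and 10 of the 13 with a known start by starts.

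Complex I, the NADH dehydrogenase, gave 38 subunit genes, of which 32 were called in the overexpression library and 20 in control. Among core subunits, which include the carriers of the flavin and the iron-sulfur clusters, NDUFS3 and NDUFV2 were called in both libraries, NDUFS1 and NDUFS7 in the overexpression library alone, and NDUFS8 and NDUFV1 in neither. NDUFV2 had 19 reads (11.4 to 29.7) in the overexpression library and 9 (4.1 to 17.1) in control. NDUFC2 had 20 (12.2 to 30.9) in the overexpression library and 10 (4.8 to 18.4) in control, and the readthrough gene NDUFC2-KCTD14 shares its start and both summits, so these are 1 site counted under 2 genes. The pileup intervals of the libraries overlapped at both NDUFV2 and NDUFC2, though the interval of the log2 ratio of NDUFV2, 0.01 to 2.55, did not reach 0.

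Of the 38, 13 were called in the overexpression library alone: NDUFA2, NDUFA3, NDUFA6, NDUFA7, NDUFA11, NDUFAB1, NDUFB2, NDUFB6, NDUFB7, NDUFB10, NDUFS1, NDUFS6 and NDUFS7. NDUFS1, which encodes the largest subunit and holds iron-sulfur clusters, had 21 reads (13.0 to 32.1) at chromosome 2, 206160073. This summit lay 629 bp before the start, and EEF1B2 also has an end within 1000 bp of it. NDUFB6, an accessory subunit gene, had 11 (5.5 to 19.7). NDUFS6, singled out after its value was seen, had the highest pileup of the set, 34 reads (23.5 to 47.5) at chromosome 5, 1801577. Its local background was 5.91 times the genome average and a summit there would have needed 20 reads in control. NDUFS7, named for the same reason, had 24 reads (15.4 to 35.7) at a local background of 6.67 times the average. MRPL36, a mitochondrial ribosomal protein gene, has an end within 1000 bp of the NDUFS6 summit, so the summit cannot be assigned to either.

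NDUFA9, an accessory subunit gene, was the 1 gene of the set called in control alone. It had 9 reads (4.1 to 17.1) at chromosome 12, 4649231, and the nearest overexpression summit lay 4439 bp from a gene end. Scaled to overexpression depth this pileup was 8.1 reads, with a lower counting bound of 3.7, and a call there would have needed 6 reads at that background. The overexpression library could therefore have missed an equal summit at this depth. AKAP3 also has an end within 1000 bp of the control summit. NDUFA5, NDUFS4, NDUFS5, NDUFS8 and NDUFV1 were called in neither library, and other subunit genes called in both were NDUFA1, NDUFA8, NDUFA10, NDUFA12, NDUFA13, NDUFB1, NDUFB3, NDUFB4, NDUFB5, NDUFB8, NDUFB9, NDUFB11, NDUFC1, NDUFC2, NDUFC2-KCTD14 and NDUFV3. The control summit of NDUFC1 lay 920 bp from the gene end, close to the limit of the window. NDUFA13, singled out after its values were seen, had its highest-fold summits at different ends. These had 21 reads (13.0 to 32.1) near the start in the overexpression library and 25 (16.2 to 36.9) at the far end in control. The overexpression library also had a summit within 1000 bp of the far end, while control had none within 1000 bp of the start.

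The 8 assembly factor genes of complex I were called alike in the libraries, 6 in each: NDUFAF2 to NDUFAF7 in both, and NDUFAF1 and NDUFAF8 in neither. NDUFAF5, which encodes an enzyme that modifies a complex I subunit, had 30 reads (20.2 to 42.8) in the overexpression library and 12 (6.2 to 21.0) in control. The log2 ratio of these pileups, each over its genome average, was 1.47 (0.46 to 2.57), the highest of the set. The summits compared lay 146 bp apart. NDUFAF2 had 12 reads (6.2 to 21.0) in the overexpression library and 11 (5.5 to 19.7) in control, and NDUFAF4 had 13 (6.9 to 22.2) and 11 (5.5 to 19.7) in the same libraries.

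All 4 subunit genes of complex II, succinate dehydrogenase, which also works in the citric acid cycle, were called in both libraries. SDHA, the flavoprotein, had 32 reads (21.9 to 45.2) in the overexpression library and 19 (11.4 to 29.7) in control, a log2 ratio of 0.90 (0.04 to 1.80). SDHB, the iron-sulfur subunit, had 11 (5.5 to 19.7) in the overexpression library and 13 (6.9 to 22.2) in control. The pileup intervals of the libraries overlapped at both, and also at the membrane anchors SDHC and SDHD. SDHC had 13 (6.9 to 22.2) in the overexpression library and 10 (4.8 to 18.4) in control, and SDHD 11 (5.5 to 19.7) and 10 (4.8 to 18.4) in the same libraries. The SDHD summits also lie at TIMM8B, a gene for a mitochondrial import protein, and those of SDHA at CCDC127.

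The assembly factors of complex II divided evenly. SDHAF1 and SDHAF2 were called in the overexpression library alone and SDHAF3 and SDHAF4 in both. SDHAF2, which helps attach the flavin to SDHA, had 22 reads (13.8 to 33.3) and a 6.40-fold enrichment at chromosome 11, 61429953, and 9 reads would have been enough in control. CPSF7 also has an end within 1000 bp of this summit. SDHAF1, needed for the iron-sulfur subunit, had 18 (10.7 to 28.4). SDHAF4 had 16 (9.1 to 26.0) in the overexpression library and 11 (5.5 to 19.7) in control, and SDHAF3 had 10 (4.8 to 18.4) and 9 (4.1 to 17.1) in the same libraries.

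Complex III, which passes electrons from ubiquinol to cytochrome c, gave 9 subunit genes, 8 called in the overexpression library and 4 in control. UQCRC1, UQCRC2, UQCRFS1 and UQCRQ were called in both, UQCR10, UQCR11, UQCRB and UQCRH in the overexpression library alone, and UQCRHL in neither. UQCRC1, a core subunit, had 21 reads (13.0 to 32.1) in the overexpression library and 15 (8.4 to 24.7) in control. UQCRFS1, the Rieske iron-sulfur protein, had 12 (6.2 to 21.0) in each library, with the overexpression summit 4 bp before the start and the control summit 327 bp after it. UQCRQ had 15 (8.4 to 24.7) in the overexpression library and 14 (7.7 to 23.5) in control. The calls of the overexpression library alone were low for UQCR10, with 8 reads (3.5 to 15.8), and UQCRB, with 7 (2.8 to 14.4). UQCRH, with 16 (9.1 to 26.0), lay 937 bp from the gene end, just inside the window, and the nearest control summit lay 1132 bp away, just outside it.

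Complex IV, cytochrome c oxidase, gave 17 subunit genes, 12 called in the overexpression library and 6 in control. COX7A2L, which encodes a relative of COX7A2 found in supercomplexes, was counted here. COX5A and COX5B, which encode subunits next to the catalytic core, were called in the overexpression library alone, with 23 reads (14.6 to 34.5) and 15 (8.4 to 24.7). Control would have needed 10 and 9 reads there. COX6C had 19 (11.4 to 29.7) in the overexpression library and 10 (4.8 to 18.4) in control. COX7C was also called in the overexpression library alone, and COX7A2L in neither at its outer gene ends. The RefSeq start of COX7A2L lies inside those bounds and had a summit in both libraries, of 12 reads (6.2 to 21.0) in the overexpression library and 13 (6.9 to 22.2) in control.

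Several subunits of complex IV exist as a widely expressed form and a form of restricted expression, as in heart and muscle, lung or testis. The set held 8 restricted isoforms, which include UQCRHL of complex III and ATP5MGL of complex V. Of the 8, 5 were called in the overexpression library and 3 in control, against 64.8% and 54.6% of all genes in the same libraries. COX6A2, the muscle form, had 18 reads (10.7 to 28.4) in the overexpression library alone, while the common COX6A1 had 15 (8.4 to 24.7) in the overexpression library and 13 (6.9 to 22.2) in control. COX4I2, the lung form, had 20 (12.2 to 30.9) in the overexpression library and 11 (5.5 to 19.7) in control, but these summits lay 7774 bp apart, at opposite ends of the gene. The common COX4I1 had 21 (13.0 to 32.1) in the overexpression library and 15 (8.4 to 24.7) in control. COX7A1, the muscle form, had 15 (8.4 to 24.7) in the overexpression library and 18 (10.7 to 28.4) in control, while the common COX7A2 was called in neither.

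COX8C, a testis form, had the highest fold enrichment of the complex IV subunit genes in both lists, 6.62-fold with 25 reads (16.2 to 36.9) in the overexpression library and 7.97-fold with 27 (17.8 to 39.3) in control. The common COX8A was called in neither library. COX7B2 had 9 (4.1 to 17.1) and the common COX7B 10 (4.8 to 18.4), both in the overexpression library alone. COX6B2, COX6B1, UQCRHL and ATP5MGL were called in neither. The common counterparts gave the same counts: of the 8 in the set, 5 were called in the overexpression library and 3 in control. NDUFA4, now named COXFA4 and so outside the symbol rule, is a ninth counterpart with 12 reads (6.2 to 21.0) in the overexpression library and 11 (5.5 to 19.7) in control.

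The 9 assembly factor genes of complex IV had 8 calls in the overexpression library and 5 in control. COX10 and COX15, which make the heme A of the enzyme, COX16, COX18 and COX20 were called in both. COX11 and COX17, which deliver copper, and COX14 were called in the overexpression library alone, and COX19 in neither. COX18, which inserts a subunit into the membrane, had 18 (10.7 to 28.4) in the overexpression library and 13 (6.9 to 22.2) in control, and COX15 had 19 (11.4 to 29.7) and 12 (6.2 to 21.0) in the same libraries. COX11 had 14 (7.7 to 23.5) and COX17 13 (6.9 to 22.2). The summit nearest to an end of COX19 lay 88256 bp away in the overexpression library and 25984 bp away in control.

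Complex V, the ATP synthase, had 11 of 19 genes called in the overexpression library and 9 in control. That was the lowest overexpression share of the roles by gene ends but not by starts, where 10 of 13 complex V genes were called, beside 10 of 14 complex IV subunit genes and 5 of 7 complex I assembly factor genes. Neither library called 8 at the gene ends: ATP5F1D, ATP5MC1, ATP5MC2, ATP5ME, ATP5MF, ATP5MF-PTCD1, ATP5MGL and ATP5MJ. The readthrough gene ATP5MF-PTCD1 shares a gene end with ATP5MF, so that uncalled end is counted under both genes. Of the catalytic F1 part, ATP5F1A, ATP5F1C and ATP5F1E were called in both, and ATP5F1B, the catalytic beta subunit, in the overexpression library alone with 17 reads (9.9 to 27.2). ATP5F1E, the epsilon subunit, had 28 (18.6 to 40.5) in the overexpression library and 18 (10.7 to 28.4) in control, at 8.46-fold and 7.36-fold enrichment.

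ATP5MC1, ATP5MC2 and ATP5MC3 encode the same mature c subunit of the membrane ring of complex V from separate genes. ATP5MC3 had the highest fold enrichment of the whole set in the overexpression list, 8.61-fold with 24 reads (15.4 to 35.7), and 16 reads (9.1 to 26.0) in control. ATP5MC1 was called in neither, at its gene ends or at its start. ATP5MC2 was called in neither at the outer gene ends, where the nearest control summit lay 1035 bp away, just outside the window. Its RefSeq start lies inside those bounds, however, and there it had summits in both libraries, with 24 reads (15.4 to 35.7) 27 bp after the start in the overexpression library and 18 (10.7 to 28.4) 1000 bp before it in control. ATP5PO, of the stalk, had 22 (13.8 to 33.3) in the overexpression library and 13 (6.9 to 22.2) in control, and ATP5MG 20 (12.2 to 30.9) and 15 (8.4 to 24.7) in the same libraries. ATP5MK was called in the overexpression library alone, with 15 (8.4 to 24.7), and ATP5PB, ATP5PD and ATP5PF in both.

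**Figure D2:**
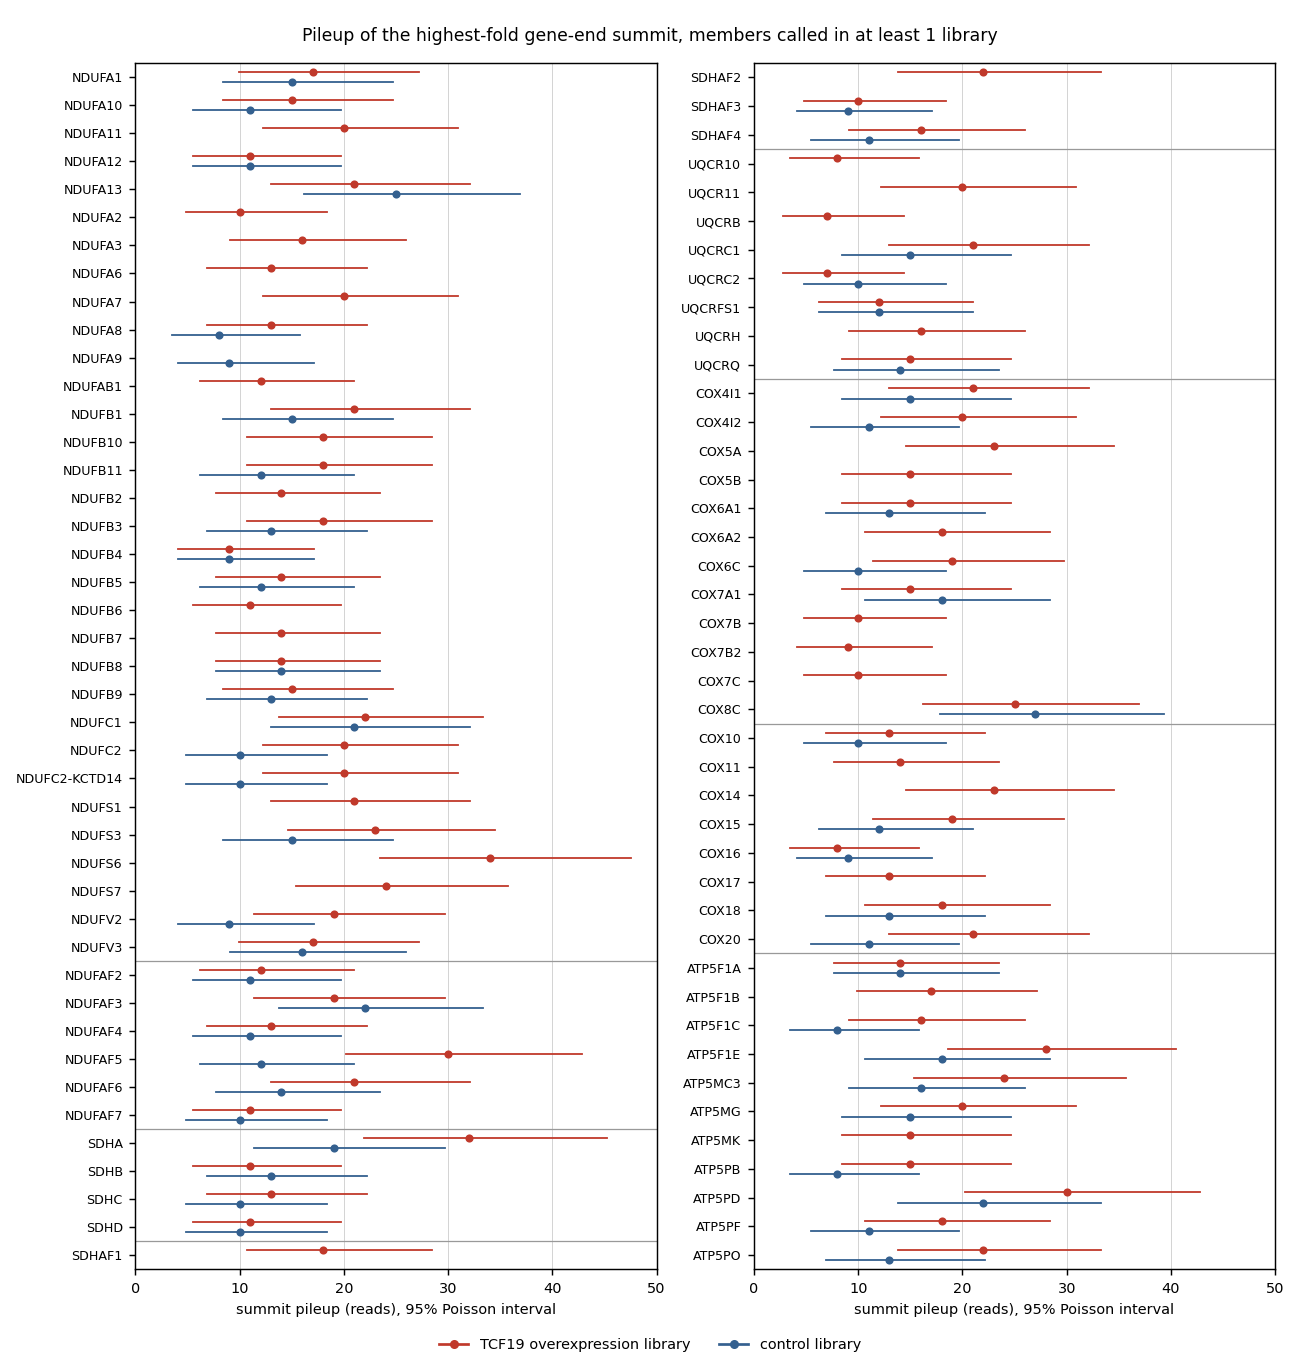
Reads at the highest-fold gene-end summit of the genes called in at least 1 library (1 of the 86 is not shown), with 95% Poisson intervals, in the TCF19 overexpression library (red, upper of each pair) and the control library (blue, lower); horizontal lines part the roles. Overexpression pileups run between 7 and 34 reads and control pileups between 8 and 27, and the intervals of a pair overlap widely at most genes.

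Pileups of the set were low in both libraries. The median over called genes was 16 reads in the overexpression library and 12 in control, against 17 and 14 over all called protein-coding genes in the same libraries. At the 55 genes called in both, the overexpression pileup over its genome average exceeded that of control at 48 and was below it at 7. Over all 9742 protein-coding genes called in both, it was above that of control at 7879 and below it at 1863. The median log2 ratio was 0.56, with quartiles of 0.22 and 0.80, against 0.39 over the 9742 protein-coding genes called in both. The counting interval of the ratio lay above 0 at 3 genes, NDUFAF5, NDUFV2 and SDHA, or 5.45%, against 5.41% of all genes called in both, and below 0 at 0 genes. At these 3 the summits compared lay 146, 224 and 173 bp apart, so each ratio sets different positions side by side. Complex V had 9 of 9 ratios above 0, the lowest 0.15 and the highest 1.15. The libraries' summits often lay apart, with a median distance of 191 bp. The summits taken lay within 100 bp of each other at 18 genes. Of any gene-end summits of a gene, an overexpression and a control summit lay within 100 bp of each other at 24 genes, and the median log2 ratio of these pairs (that of highest overexpression fold per gene) was 0.34, against 0.37 over the 4665 such pairs of all genes.

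**Figure D3:**
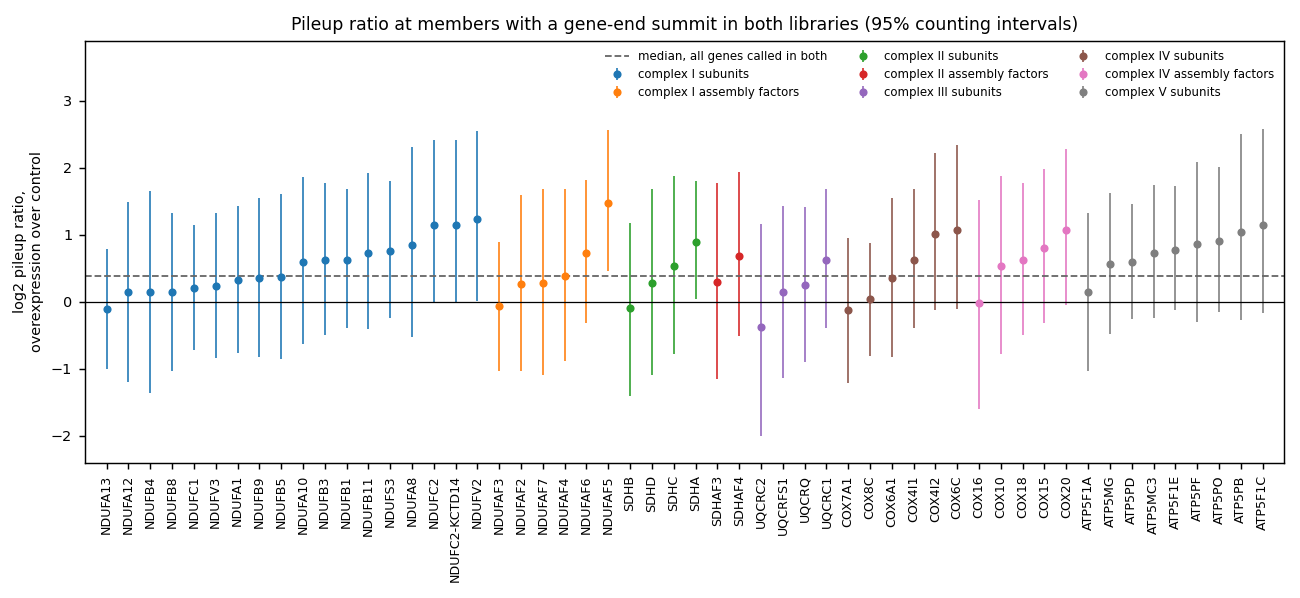
Log2 ratio of summit pileups, overexpression over control, each over its genome average, for the genes called in both libraries (1 of the 55 is not shown), grouped by role and sorted within it; bars are 95% counting intervals and the dashed line is the median of all protein-coding genes called in both (0.39). Most points lie above 0, and 3 intervals do not reach 0.

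The RefSeq promoter table gave the start, and with it the strand, for 89 of the 108 genes, so their starts could be told from their other ends. A summit lay within 1000 bp of the start at 73 of the 89 (82.0%) under overexpression and at 47 (52.8%) in control. Over all 15812 genes with a known start the shares were 63.4% and 51.4% in the same libraries. At the start, 27 genes were called under overexpression alone and 1 in control alone, against 16.6% and 4.53% of all genes. At the other end lay a summit for 8 of the 89 genes (8.99%) under overexpression and 7 (7.87%) in control, against 11.4% and 12.3% of all genes. In the overexpression library 1 gene, NDUFA7, had a summit at its other end and none at its start. A start here is that of the transcript in the table, which can lie inside the outer bounds of the gene.

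Start summits stood close to the start. Their median position was 66 bp after it in the overexpression library and 94 bp after it in control, against 147 and 185 bp over all genes. Within 250 bp of the start lay 45 of 73 (61.6%) in the overexpression library and 21 of 47 (44.7%) in control, against 49.5% and 42.6% over all genes. After the start, in the direction of transcription, lay 54.8% in the overexpression library and 61.7% in control, against 68.2% and 69.8% over all genes.

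**Figure D4:**
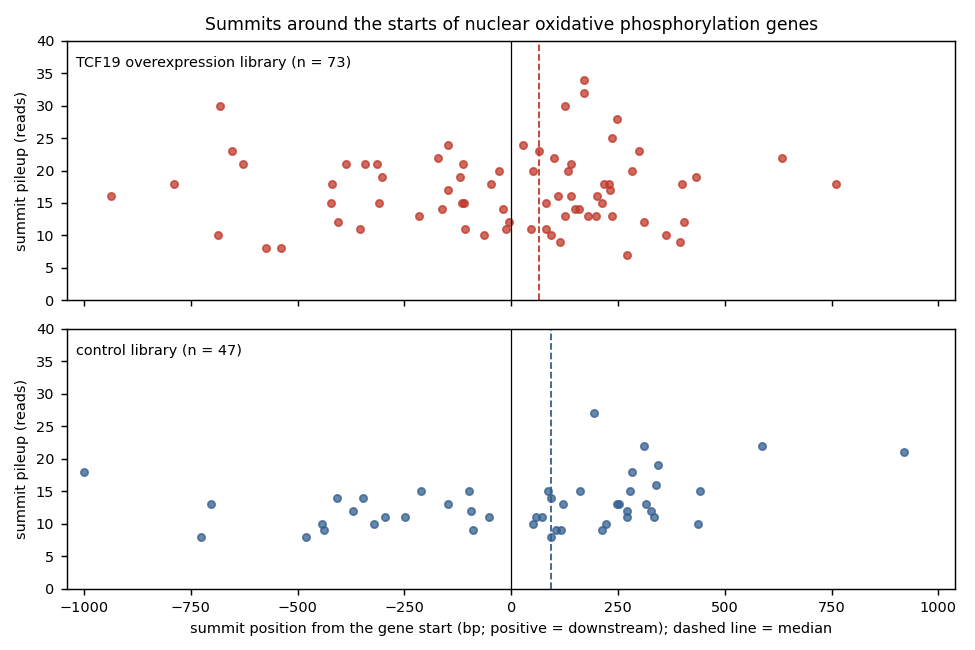
Reads at the highest-fold summit within 1000 bp of the start, against its distance from the start in bp (positive is downstream), for 73 genes in the overexpression library (upper panel) and 47 in control (lower panel); dashed lines are medians. Points of both panels gather within 500 bp of the start, 86.3% of them in the overexpression library and 89.4% in control.

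Many of these genes stand head to head or overlapping with a neighbour, and a summit between such genes cannot be assigned to either. The summit taken also lay within 1000 bp of an end of another protein-coding gene at 38 of 85 genes (44.7%) in the overexpression library and 29 of 56 (51.8%) in control. Over all called genes the shares were 21.7% and 18.5% in the same libraries. Among genes called in the overexpression library alone, examples are NDUFS1 with EEF1B2, SDHAF2 with CPSF7, UQCRH with LRRC41, COX11 with STXBP4 and ATP5MK with PDCD11. Among those called in both, examples are NDUFB5 with MRPL47, ATP5PB with WDR77, NDUFAF5 with ESF1 and ATP5PF with GABPA. The last pair joins a stalk subunit of complex V and the factor GABPA named above, and their shared summits had 18 reads (10.7 to 28.4) in the overexpression library and 11 (5.5 to 19.7) in control.

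The promoters of the set were rich in CpG. In the 300 bases from 250 before to 50 after the start, the ratio of observed to expected CpG exceeded 0.6 at 81 of 89 genes (91.0%), against 65.7% of all 15812 promoters, with median G and C contents of 62.0% and 62.7%. Among genes with such CpG-rich promoters, 66 of 81 of the set (81.5%) were called in the overexpression library, against 80.6% of all genes. In control 43 of the 81 (53.1%) were called, against 64.7%, and 24 (29.6%) were called in the overexpression library alone, against 19.3%. Set beside genes of like promoters, the share called in the overexpression library was thus near the background, and the share called in control was below it. The 8 genes at or below 0.6 were COX6A2, COX7A2, COX7B2, COX8C, NDUFA5, NDUFAF3, NDUFB7 and NDUFB8, and 3 of them are restricted isoforms.

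Matches to known motifs were frequent, as a property of the reference sequence. The NRF1 core, which is GCGC, then A, any base and GCGC, stood in 22 of 89 promoters (24.7%), against 8.59% of all promoters. The ETS core CCGGAAG stood in 26 (29.2%), against 14.2%, the YY1 core AAGATGG in 17 (19.1%), against 6.40%, and TGACGTCA in 5 (5.62%), against 2.59%. Both strands were searched, and a promoter may hold several of them. By call, 30 of the 45 promoters of genes called in both libraries held at least 1 of the 4 motifs (66.7%), 16 of 27 of those called in the overexpression library alone (59.3%) and 6 of 16 of those called in neither (37.5%). Over all promoters these shares were 31.7%, 34.0% and 17.3%. ATP5ME, with matches to all 4, was called in neither library.

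Chromosome 19 held 13 of the genes, and 7 of these were called in the overexpression library alone: NDUFA3, NDUFA7, NDUFA11, NDUFB7, NDUFS7, SDHAF1 and UQCR11. Over all 1451 protein-coding genes of chromosome 19 this share was 25.6%. On the other chromosomes it was 23 of 95 in the set (24.2%) and 15.2% of all genes. At the 30 genes called in the overexpression library alone, the local background there had a median of 2.33 times the genome average. At the genes of the set called in both it was 1.72 times. Over all protein-coding genes these medians were 2.84 and 1.95 times. The part of local background in these calls was not tested.

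Of the 22 genes called in neither library at their outer ends, ATP5MC2 and COX7A2L had summits at their starts in both libraries. Over the 22, the overexpression summit nearest to a gene end was 1688 to 88256 bp from it, with a median of 5456.5 bp, and it lay within 2000 bp at 1 gene. The nearest control summit was 1035 to 61717 bp from a gene end, with a median of 7455.5 bp, and it lay within 2000 bp at 2 genes. ATP5F1D, ATP5ME, COX6B2, COX8A, COX19, NDUFAF8 and UQCRHL had distances above the median in both libraries. The 30 genes called in the overexpression library alone had their nearest control summit a median of 3221 bp from a gene end, within 2000 bp at 8 genes.

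Other genes of the pathway, taken from 4 lists that hold no gene of the set, numbered 62. Of these, 55 (88.7%) were called under overexpression, against 64.8% of all genes, and 45 (72.6%) in control, against 54.6%. The overexpression library alone called 12, against 16.0% of all genes, and control alone 2, against 5.84%. Of 34 further assembly factors, 29 were called in the overexpression library (85.3%, against 64.8% of all genes) and 25 in control (73.5%, against 54.6%). UQCC1, UQCC3, SURF1, COA7, ATPAF2 and ATP5IF1 were called in the overexpression library alone, COA3 and COA4 in control alone, and DMAC2, LYRM7 and SCO2 in neither. The highest folds were at TIMMDC1, with 19 reads (11.4 to 29.7) in the overexpression library and 14 (7.7 to 23.5) in control, and UQCC2, with 20 (12.2 to 30.9) and 11 (5.5 to 19.7) in the same libraries.

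Of 13 citric acid cycle genes, 12 were called in the overexpression library (92.3%, against 64.8% of all genes) and 11 in control (84.6%, against 54.6%). OGDH was called in the overexpression library alone and IDH3G in neither. SUCLG2, a succinyl-CoA ligase subunit gene, had 17 (9.9 to 27.2) in the overexpression library and 12 (6.2 to 21.0) in control. DLST, of the oxoglutarate dehydrogenase complex, had 24 (15.4 to 35.7) in the overexpression library and 10 (4.8 to 18.4) in control. Of 3 genes for cytochrome c, cytochrome c1 and the heme lyase that completes them, CYCS was called in the overexpression library alone, with 11 reads (5.5 to 19.7), and CYC1 and HCCS in both. HCCS had 10 (4.8 to 18.4) in the overexpression library and 9 (4.1 to 17.1) in control.

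Of 12 genes that encode regulators of respiratory genes or of mitochondrial transcription, 11 were called in the overexpression library and 7 in control. These shares were 91.7% against 64.8% of all genes under overexpression, and 58.3% against 54.6% in control. The 4 called in the overexpression library alone were TFAM, which packs mitochondrial DNA and helps start its transcription, ESRRA, PPARGC1B and PPRC1. Of these 4, TFAM alone had the summit taken within 1000 bp of its RefSeq start. The ESRRA summit lay 10348 bp after the start, near the far end, and TRMT112 also has an end within 1000 bp of it. At PPARGC1B and PPRC1 the summit lay near an outer gene end, with the RefSeq start farther inside the gene. LDB1 also has an end within 1000 bp of the PPRC1 summit. POLRMT was called in neither library. GABPB1, the partner of GABPA, had 30 reads (20.2 to 42.8) in the overexpression library and 12 (6.2 to 21.0) in control. TFB1M had 12 (6.2 to 21.0) in the overexpression library and 11 (5.5 to 19.7) in control.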

How the data were processed

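ChIP DNA of 2 Ishikawa populations was sequenced, 1 library per group. BWA 0.7.12, MACS2 2.1.0 and hg38 are named in the submitters' processing notes; peak-calling parameters and any input library: not given in the sources used here. The deposited lists give, per summit, a score, a fold enrichment (a ratio), and −log10 p-values and q-values by the authors' peak caller, 1 list per library. The lowest deposited −log10 q-value was 1.30 in each list, a q-value of 0.05.

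From these, pileups in whole reads and their local backgrounds were solved from the deposited fold, (pileup + 1) / (background + 1), and the Poisson −log10 p-value within 0.001, at 99.996% of overexpression and 99.997% of control summits. All 19974 RefSeq GRCh38.p14 protein-coding genes were scanned for summits up to 1000 bp from an end. Starts, strands and sequences came from the RefSeq promoter table; 19 of the 108 genes had no entry. Exact Poisson and binomial intervals (95%) cover counting error only, since reads may hold PCR copies. Reads needed for a call used the lowest deposited −log10 p of the other list and the local background scaled by depth. Solving and assignment were tested on simulated data. Python 3.11.15, numpy 2.4.6, scipy 1.17.1 and pandas 2.3.3 were used.

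The genes, lists and rules were chosen with earlier results of these data known. Genes given full values were the 3 of highest overexpression fold and the 2 of highest fold called in the overexpression library alone in each role, all of complex II, NDUFA9, and the restricted isoforms with their counterparts, with exceptions named. One gene of the set is counted, but its own values are not reported here. Alternatives changed the window, the peak threshold, the list length, the gene end, the neighbours, the overlap rule, and, added after seeing the data, readthrough genes and local background. The comparison among CpG-rich promoters was also added after seeing the data.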

Additional observations from a re-analysis of the deposited data

Results flagged for a closer look

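Summits on the mitochondrial contig lie outside the comparison of nuclear gene ends, and they were flagged because their signal was above that of control. The mitochondrial genome encodes the remaining subunits of complexes I, III, IV and V. The overexpression list held 7 summits there and the control list 6. Their median pileup was 149 reads, or 104.3 times the genome average, in the overexpression library and 67 reads, or 42.3 times, in control. The fold enrichment over local background was low in both, with medians of 1.73 in the overexpression library and 1.83 in control, so the reads were spread over the contig. Whether the libraries differed in mitochondrial DNA content was not tested.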

How the results depend on the processing

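No paired analysis was possible because each group had 1 library. The median log2 ratio, the only main result with a sign, stayed above 0 under every alternative for which it was recomputed, which was not all of them. The overexpression library had more calls than control under each alternative. Of the main results, 30 of 47 recomputed values moved by less than the limits (1.5 times for a count, 0.1 for a log2 value). The count called in the overexpression library, 85, was 50 at a fold of at least 4, or 46.3%, against 39.2% of all genes. It was 46 among the 68 genes that share no summit with a neighbour. The count in control, 56, was 37 at a −log10 q of at least 3, or 34.3%, against 39.7% of all genes. It was 19 at a fold of at least 4 (17.6%, against 23.1%) and 35 with lists of equal length (32.4%, against 34.4%). Without shared summits it was 26. The count in the overexpression library alone, 30, was 51 with lists of equal length (47.2%, against 33.2% of all genes). That cut shortened the control list alone and so could only raise the count. The count in control alone, 1, was 2 in a 500 bp window (1.85%, against 6.34% of all genes) and 3 in a 2000 bp window (2.78%, against 6.55%). It was 3 at the stricter q (2.78%, against 5.61%) and 2 at the stricter fold (1.85%, against 4.43%). By interval overlap it was 2, and without shared summits 0. At a local background of at most 3 times the genome average it was 5, or 4.63%, against 6.34% of all genes. Shares of all genes were not computed for interval overlap or without shared summits. The median log2 ratio, 0.56, was 0.46 at the stricter q, 0.39 at the stricter fold and 0.34 at summit pairs within 100 bp. The cause was not tested, except that stricter thresholds and left-out genes leave fewer calls by construction. Of 160 counts by role, 28 moved, and of 608 gene pileups 0 left their counting interval. A pileup was compared only where the gene was still called. A stricter fold or a shorter list by fold keeps the same highest-fold summit, so such pileups could not move. Depth limits single genes: at median pileups of 16 and 12 reads, the counting interval of the ratio took in 0 at all but 3 of 55 genes.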
